A study of Mus musculus with 4 samples.

Results

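The 10 genes described here encode receptors by which natural killer (NK) cells and some T cells read other cells: *Klrd1*, *Klrc1*, *Klrk1*, *Klrb1a*, *Klrb1c*, *Klre1*, *Klrg1*, *Klra4*, *Klra8* and *Ncr1*. They were taken by symbol, 10 of the 30905 genes of the count matrix, and all 10 symbols matched exactly 1 row each. The study placed hearts in the abdomen of C57BL/6J recipients, 2 from BALB/c donors (allogeneic) and 2 from C57BL/6J donors (syngeneic), all male mice of 8 to 10 weeks, and profiled each graft by single-cell RNA sequencing on day 5 after transplantation. The cells stand in 1 merged matrix whose barcodes end in a suffix from 1 to 4, called library 1 to 4 here, and no label pairs a suffix with a graft. No allogeneic cell was therefore set against a syngeneic cell, the 4 suffixes count as 1 pooled sample without replicates, and no test was run between classes or libraries.

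Library totals ranged from 96020294 to 166079145 UMIs (unique molecular identifiers, each counting 1 captured transcript), and median UMIs per cell ranged from 4759 in library 2 to 9784 in library 4. Between 137 and 164 cells of each library carried a barcode that also occurs in another library. After filtering, 42395 cells remained, and 1861 of them formed the only T/NK-like cluster, which had all 10 of its marker genes raised. Library 4 gave 1401 of these cells, against 173, 166 and 121 from libraries 1, 2 and 3.

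NK cells decide whether to attack by adding up signals from inhibitory and activating receptors that differ between neighbouring cells. Most of these receptors are lectin-like proteins encoded side by side in a cluster of genes known as the NK gene complex. *Klrd1* (CD94) pairs with *Klrc1* (NKG2A) in an inhibitory receptor for the nonclassical class I molecule Qa-1, the product of *H2-T23*. *Klrk1* (NKG2D) is an activating receptor for stress-induced ligands and signals through the adaptors encoded by *Hcst* and *Tyrobp*. *Klra4* (Ly49D) and *Klra8* (Ly49H) are activating receptors of the Ly49 group, and *Klrb1a* and *Klrb1c* (the NK1.1 antigen) belong to the NKR-P1 group. *Klre1* pairs with members of the *Klri* group, *Klrg1* binds cadherins, and *Ncr1* (NKp46) is an immunoglobulin-like receptor outside the lectin-like group. In transplantation, NK cells of the recipient can meet donor class I molecules that differ from their own.

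In GRCm38 (mm10), the build of the deposited counts, 9 of the 10 genes lie on chromosome 6 and *Ncr1* lies on chromosome 7 (GENCODE M21, chr7:4337724-4345164, plus strand). From *Klre1* (chr6:129577905-129585827, plus strand) the complex runs through *Klrd1* (chr6:129591782-129598775, plus strand), *Klrk1* (chr6:129610323-129623864, minus strand) and *Klrc1* (chr6:129666015-129678973, minus strand). *Klra4* (chr6:130043731-130067271) and *Klra8* (chr6:130115226-130129898) follow on the minus strand. *Klrb1a* (chr6:128609227-128623533) and *Klrb1c* (chr6:128778485-128789215) lie before *Klre1* on the minus strand, and *Klrg1* (chr6:122270596-122282882, minus strand) lies farther away. Because the libraries read the 3' end of transcripts, the uniqueness of the last 500 bases of each gene's coding transcripts was counted in runs of 100 bases. All runs were unique for 7 genes. For *Klrc1* 82.9% were unique, the rest being shared with *Klrc2*, for *Klrb1c* 89.5%, with 9.91% shared with the overlapping same-strand gene *Gm44511*, and for *Klrb1a* 99.4%. Counts of *Klrc1* and *Klrb1c* are to that extent uncertain, and the reference is that of the C57BL/6J strain, so transcripts of BALB/c alleles were not counted apart. Only exact matches of 100 bases were counted, so reads shared with near copies were not tested for any of the 10 genes.

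RefSeq promoter windows of the same build (GRCm38.p6) were found for 8 of the 10 genes, and the 250 bases before the start are considered here. The windows of *Klrb1a* and *Klrb1c* had the highest identity of any pair, 188 of 210 aligned bases (89.5%), but with 80 gap bases. Pairs other than this one and *Klra4* with *Klra8* had 63.9% to 76.8%. The windows of *Klra4* and *Klra8*, of the Ly49 group, are shown because they were alike, with 212 of 249 aligned bases identical (85.1%) and 2 gap bases. They are printed 5′ to 3′ on the strand of the gene, chr6:130067272-130067521 and chr6:130129899-130130148 (minus strand).

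Klra4: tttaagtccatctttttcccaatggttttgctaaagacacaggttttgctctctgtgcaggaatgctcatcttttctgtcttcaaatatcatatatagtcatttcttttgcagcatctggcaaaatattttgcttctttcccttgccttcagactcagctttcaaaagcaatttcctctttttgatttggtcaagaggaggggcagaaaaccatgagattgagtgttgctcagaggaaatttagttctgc

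Klra8: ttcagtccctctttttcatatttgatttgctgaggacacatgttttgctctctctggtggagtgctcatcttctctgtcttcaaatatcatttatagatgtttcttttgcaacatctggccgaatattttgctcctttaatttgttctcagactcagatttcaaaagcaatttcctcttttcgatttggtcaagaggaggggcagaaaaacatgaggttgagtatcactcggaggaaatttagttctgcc

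The windows of *Klrk1* (chr6:129623865-129624114, minus strand) and *Ncr1* (chr7:4337465-4337714, plus strand) are shown because each held the letters of a Runx motif once, in capitals, with its first base at -129 and -176 from the start, where *Klra4* and *Klra8* held none of the motifs searched.

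Klrk1: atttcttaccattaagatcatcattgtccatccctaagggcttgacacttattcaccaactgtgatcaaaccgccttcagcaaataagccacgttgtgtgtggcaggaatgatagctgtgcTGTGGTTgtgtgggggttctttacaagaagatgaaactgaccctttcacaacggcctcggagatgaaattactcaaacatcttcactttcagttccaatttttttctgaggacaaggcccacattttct

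Ncr1: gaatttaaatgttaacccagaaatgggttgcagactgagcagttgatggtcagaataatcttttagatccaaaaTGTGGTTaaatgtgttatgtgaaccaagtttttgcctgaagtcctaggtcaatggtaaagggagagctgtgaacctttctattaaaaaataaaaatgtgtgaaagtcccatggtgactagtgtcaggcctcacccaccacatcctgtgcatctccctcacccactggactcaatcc

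The letters searched on both strands were TGTGGTT for Runx, TCACACC for T-box and CAGGAAG for Ets factors. The Runx letters occurred in 4.41% of 32536 promoter windows of this length, and in those of *Klre1*, *Klrk1* and *Ncr1* among the 8 genes. The T-box letters (3.33% of windows) and the Ets letters (10.8%) occurred in none of the 8. *Klre1*, *Klra8* and *Ncr1* had 2 RefSeq starts each. The Runx letters of *Klre1* were in 1 of its 2 windows, and those of *Ncr1* lay at -176 or -185 depending on the start. The start used for the *Ncr1* window above lies before the GENCODE start, and the bases that follow it were not found in a GENCODE transcript of the gene. A match describes the sequence and is not evidence of binding.

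Cells of the T/NK-like cluster were assigned to classes by other genes than the 10 receptors, and no receptor of the family entered the clustering. NK-gated cells (n = 338) had UMIs of at least 2 of *Eomes*, *Prf1*, *Gzma*, *Txk*, *Xcl1* and *Il2rb*, under 200 CPM (UMIs per 1000000 non-mitochondrial UMIs) of the 3 CD3 genes together and no UMI of *Cd4*, *Cd8a* or *Cd8b1*. CD8-gated (n = 729) and CD4-gated cells (n = 297) had CD3 RNA above that limit with UMIs of the 1 coreceptor only. Gamma-delta-gated cells (n = 57) had CD3 RNA above the limit, a UMI of *Trdc* and none of *Trac*, *Cd4*, *Cd8a* or *Cd8b1*, and 440 cells stayed ungated. Median depth was 9405.5, 13419, 7834 and 6042 UMIs in the 4 classes. *Tyrobp* and *Fcer1g*, adaptor genes of NK cells that the gates did not use, stood at 2034 and 2088 CPM in NK-gated cells. In CD8-gated cells they stood at 95.2 and 157 CPM, in CD4-gated cells at 91.2 and 133 CPM, and in gamma-delta-gated cells at 823 and 864 CPM. The last 2 values lie between those of NK and T cells, and the gamma-delta-gated class was not uniform. The gate does not separate NK cells from other innate lymphoid cells that express the same genes.

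NK-gated cells came from libraries 1, 3 and 4 (64, 36 and 234 cells) and only 4 came from library 2. CD8-gated cells numbered 28, 60, 32 and 609 in libraries 1 to 4. A class with under 20 cells in a library was given no level there, which left libraries 2 and 4 for CD4-gated and library 4 for gamma-delta-gated cells. Levels in CPM and ratios of levels are given with exact 95% intervals in brackets, which rest on Poisson counts and cover counting error only. RNA of other cell types within the gates moved with the library. The 6 endothelial markers together took 0.87% and 0.49% of the UMIs of CD4-gated and CD8-gated cells in library 2 and 0.00859% and 0.00838% in library 4, and the 5 granulocyte markers took 0.24% and 0.22% in library 2 and 0.00360% and 0.00312% in library 4. Their part in the receptor levels was not tested.

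Together the 10 receptors took 3838 CPM (3776 to 3900) in NK-gated cells, 1497 CPM (1378 to 1625) in gamma-delta-gated cells, 637 CPM (623 to 650) in CD8-gated cells and 138 CPM (126 to 151) in CD4-gated cells. In NK-gated cells the sum was 4047, 3929 and 3777 CPM in libraries 1, 3 and 4, and the intervals of libraries 1 (3899 to 4199) and 4 (3705 to 3849) do not overlap. In CD8-gated cells it was 427, 324, 570 and 648 CPM in libraries 1 to 4, all below every NK value, and without library 4 it was 420 CPM. Beside this, the 12276 endothelial-like cells, which should lack these receptors, held 3.08 CPM of the 10 genes together. Only 643 of them, all in cluster 22, came from library 4, so this value rests mainly on the other libraries. In library 4 *Klrk1* alone stood above it in endothelial-like cells, as given below. The shares of endothelial-like cells given below likewise pool all libraries and may understate stray RNA in library 4.

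Between NK-gated and CD8-gated cells, 9 of the 10 receptors were higher in NK-gated cells by at least 2-fold with 10 CPM added to both levels, where 3.84% of the 7909 genes compared were. None was lower by 2-fold, where 2.93% of genes were. The median log2 difference was 3.60 over the 10 receptors and -0.01 over all genes compared. *Klrc1* was the exception. Within libraries 1 and 3 all 10 receptors were higher by 2-fold, with 10.8% and 11.6% of all genes, and within library 4 the count was 9, with 3.71% of all genes. The count was also 10 when library 4 was left out, a setting for which the share of all genes is not given here. Against CD4-gated cells 9 were higher, where 3.16% of genes were, and there *Klrg1* was the exception. Against gamma-delta-gated cells 7 were higher, where 2.74% of genes were, and *Klrd1*, *Klrk1* and *Klrc1* were the exceptions. At 4-fold, 7 were higher than in CD8-gated cells (0.784% of genes), 9 than in CD4-gated cells (0.972%) and 3 than in gamma-delta-gated cells (0.211%).

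**Figure D1:**
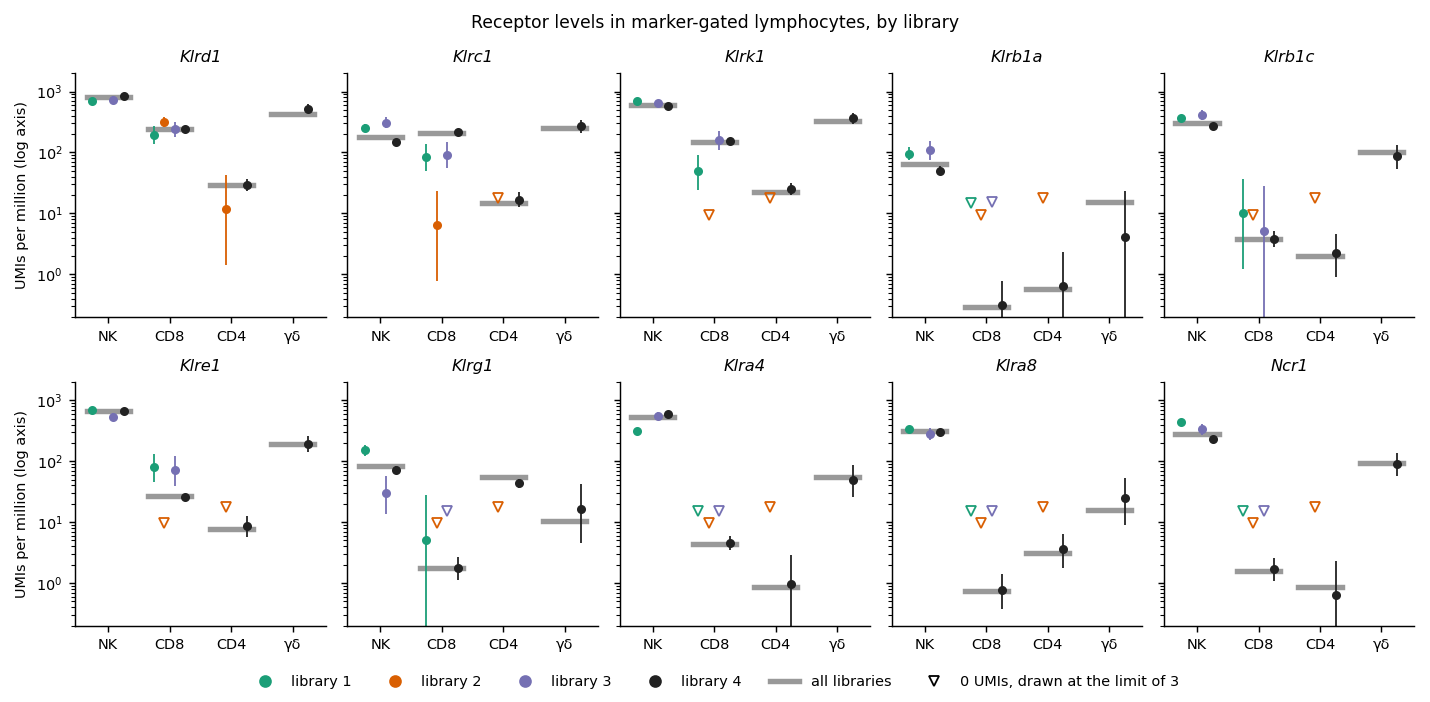
Level of each receptor gene (CPM, log axis) in NK-gated, CD8-gated, CD4-gated and gamma-delta-gated (γδ) cells. Points are libraries with at least 20 cells of the class, bars their exact Poisson 95% intervals (counting error only, cut off at the bottom of the axis), grey lines all libraries together, and open triangles a count of 0 drawn at the level of 3 UMIs; *Klra4*, *Klra8* and *Ncr1* lie above 200 CPM in every NK value and below 5 CPM in all CD8-gated cells together, whereas the *Klrc1* values of the 2 classes overlap.

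The Ly49 receptors *Klra4* and *Klra8* differed between NK-gated and CD8-gated cells by 5.25 and 4.89 on the log2 scale with 10 CPM added, and *Ncr1* by 4.63. Without library 4 the values were 5.31 and 5.04, and 5.37 for *Ncr1*. CD8-gated cells of libraries 1, 2 and 3 had 0 UMIs of all 3 genes, so these values rest on the NK level and the added 10 CPM. The order of the 3 genes is therefore not resolved on this scale, and by the ratios without added CPM given below *Klra8* lay above *Klra4*. *Klra4* stood at 312, 552 and 591 CPM in the NK-gated cells of libraries 1, 3 and 4, library 1 being the lowest. In CD8-gated cells it had 0 UMIs in libraries 1, 2 and 3, where 3 UMIs would be 15.1, 9.53 and 15.4 CPM, and 4.62 CPM in library 4. The ratio of NK-gated to CD8-gated cells was 123 (94.8 to 161). *Klra8* stood at 338, 279 and 304 CPM in the same 3 libraries, values whose intervals overlap, and at 0.73 CPM (10 UMIs) in CD8-gated cells, a ratio of 422 (229 to 882). CD4-gated cells had 3 *Klra4* UMIs, all in 1 cell, and 11 *Klra8* UMIs, and gamma-delta-gated cells had 54.5 CPM of *Klra4*, from 3 cells, and 15.6 CPM of *Klra8*, from 1 cell.

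The 2 Ly49 genes were each seen in about the same number of NK-gated cells, 173 and 177 of 338, but not in all the same cells. Both had a UMI in 122 cells, *Klra4* alone in 51, *Klra8* alone in 55 and neither in 110. A *Klra8* UMI was found in 70.5% of the cells with *Klra4* and in 33.3% of those without it, and the product of the 2 shares would put both in 26.8% of cells where 36.1% had both. In library 4 alone the shares were 71.3% and 33.3%, at median depths of 10708 and 9578 UMIs. These are the depths of cells with and without a *Klra4* UMI, and a missing UMI does not show that the gene was off.

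*Ncr1* stood at 441, 333 and 232 CPM in the NK-gated cells of libraries 1, 3 and 4, and the intervals of libraries 1 and 4 (393 to 493 and 214 to 250) do not overlap. CD8-gated cells had 0 UMIs in libraries 1, 2 and 3 and 1.70 CPM in library 4, and CD4-gated cells had 3 UMIs in all. *Klrb1c* stood at 365, 411 and 276 CPM in the NK-gated cells of the same libraries, library 4 again being apart from the others, and at 3.87 CPM in CD8-gated cells, a ratio of 78.2 (59.4 to 105). *Klrb1a* was at 95.5, 111 and 50.5 CPM in the NK-gated cells of libraries 1, 3 and 4 and had 4 UMIs in all CD8-gated cells, and without library 4 its level in NK-gated cells was 99.8 CPM where the 3 libraries together gave 63.6 CPM. *Ncr1*, *Klrb1a* and *Klrb1c* were thus all lowest in library 4, as were *Klrc1* and *Klrk1*. *Klra4* and *Klrd1* had their highest values there. For *Klrk1*, *Klra4* and *Klrd1* the intervals of libraries 3 and 4 overlap, so their order between these libraries is not resolved. What share of all genes was lowest in library 4 is not given here, so these orders do not set the receptors apart.

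*Klre1*, whose product partners with Klri proteins, stood at 696, 535 and 672 CPM in the NK-gated cells of libraries 1, 3 and 4. In CD8-gated cells it was 80.4 and 71.8 CPM in libraries 1 and 3, 25.7 CPM in library 4 and 0 UMIs in library 2, and without library 4 its CD8 level was 42.3 CPM where all libraries gave 26.6 CPM. The log2 difference over all libraries was 4.21. It was found in 142 of 729 CD8-gated cells (19.5%, and 6.67% without library 4) and in 311 of 338 NK-gated cells. After each cell was thinned at random to 1000 UMIs, the shares were 2.76% and 46.1%, against 0.0418% of endothelial-like cells.

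The receptors of highest level in CD8-gated cells over all libraries were *Klrd1*, *Klrc1* and *Klrk1*. In library 1 alone *Klre1*, at 80.4 CPM, lay above *Klrk1*, at 50.2 CPM. *Klrd1* stood at 706, 727 and 844 CPM in the NK-gated cells of libraries 1, 3 and 4 and at 196, 318, 241 and 239 CPM in the CD8-gated cells of libraries 1 to 4, so the classes did not overlap. The ratio over all libraries was 3.37 (3.21 to 3.54). After thinning, 54.8% of NK-gated and 20.7% of CD8-gated cells had a *Klrd1* UMI, against 0.150% of endothelial-like cells. *Klrk1* stood at 692, 640 and 587 CPM in NK-gated cells and at 50.2, 0, 159 and 156 CPM in the CD8-gated cells of libraries 1 to 4, where 3 UMIs in library 2 would be 9.53 CPM. Its ratio was 4.04 (3.81 to 4.29) over all libraries, and without library 4 its CD8 level was 57.8 CPM where all libraries gave 151 CPM.

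*Klrc1*, the inhibitory partner of *Klrd1*, was the receptor whose order of NK and CD8 T cells depended on the library. In libraries 1 and 3 the NK-gated cells held more, 251 and 310 CPM against 85.4 and 92.4 CPM in CD8-gated cells, with ratios of 2.94 (1.78 to 5.16) and 3.35 (2.01 to 5.91). In library 4 the CD8-gated cells held more, 215 CPM (207 to 223) against 147 CPM (133 to 162), a ratio of NK to CD8 of 0.685 (0.616 to 0.760). Since library 4 held 609 of the 729 CD8-gated cells, the pooled levels of 179 and 206 CPM follow it, and without library 4 the level in CD8-gated cells was 52.2 CPM. Library 2 stood apart in its CD8-gated cells, with 318 CPM of *Klrd1*, 6.35 CPM of *Klrc1* (2 UMIs) and no *Klrk1* UMI in 60 cells.

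Within the CD8-gated cells, a UMI of *Gzmb*, which encodes a cytotoxic granule protease, divided 557 cells with from 172 without, 543 and 66 of them in library 4. In library 4 *Klrc1* stood at 218 CPM (210 to 226) in cells with *Gzmb* and at 157 CPM (128 to 190) in cells without. *Klrd1* and *Klrk1* lay the other way, at 233 and 154 CPM with *Gzmb* and at 346 and 203 CPM without, and none of the 3 pairs of intervals overlaps. The share of all genes with such intervals in this split was not counted, so this does not set the receptors apart from other genes. The cells with *Gzmb* were deeper, with a median of 18489 UMIs against 7230.5. After thinning, a *Klrc1* UMI was in 14.4% and 12.3%, a *Klrd1* UMI in 20.5% and 23.1% and a *Klrk1* UMI in 12.2% and 12.3% of cells with and without *Gzmb* in library 4. These shares lay in the same order as the CPM values. With so few cells without *Gzmb* they are too coarse to show whether the differences hold at equal depth, and this was not tested. Over all libraries *Klrd1* and *Klrc1* kept their order, at 233 and 217 CPM with *Gzmb* and 305 and 103 CPM without. *Klrk1* did not, at 154 CPM (147 to 161) with *Gzmb* and 127 CPM (108 to 148) without, intervals that overlap. All 60 CD8-gated cells of library 2, which had no *Klrk1* UMI, were among the cells without *Gzmb*.

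*Klrc1* and *Klrk1* were seen together in CD8-gated cells of library 4 in 287 of 609 cells, 47.1% where the product of the 2 shares is 39.8%. A *Klrk1* UMI was in 68.7% of cells with *Klrc1* and in 34.6% of cells without it, but the former had a median of 22354 UMIs and the latter 8735, and the part of depth in this was not tested. In NK-gated cells *Klrd1*, *Klrk1* and *Klre1* were seen in 312, 315 and 311 of 338 cells and *Klrc1* in 150. A *Klrc1* UMI was in 144 of the 312 NK-gated cells with a *Klrd1* UMI, so the RNA of the inhibitory partner was seen in fewer NK-gated cells than that of *Klrd1*.

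**Figure D2:**
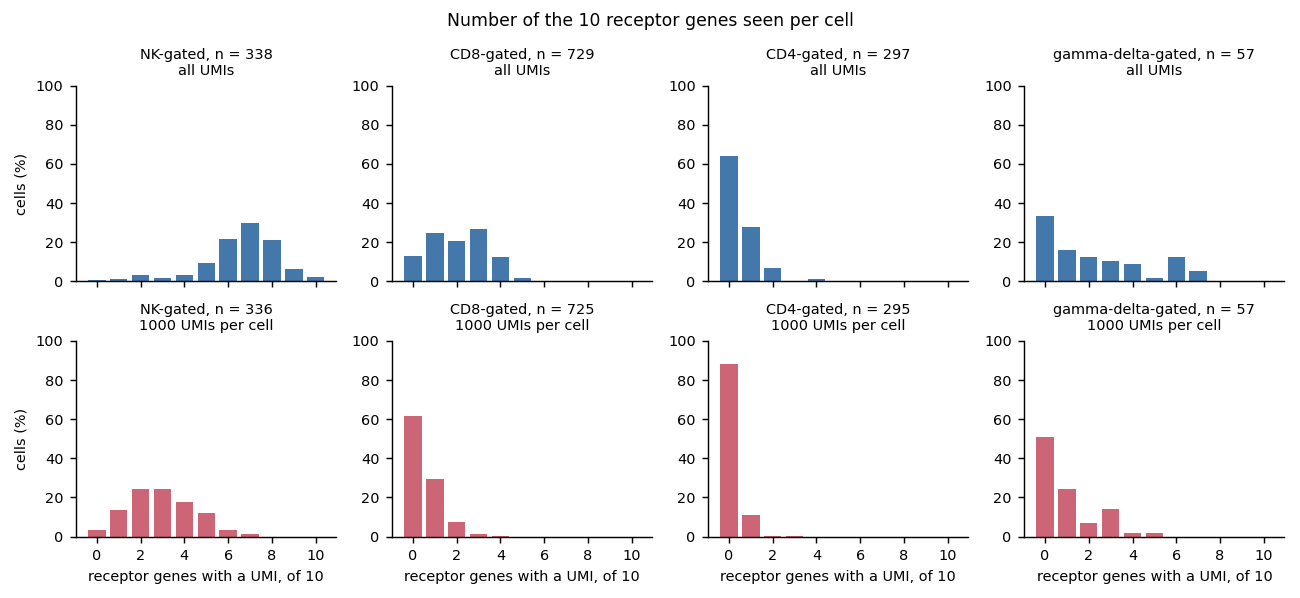
Share of cells (%) by the number of the 10 receptor genes with a UMI, in each gated class, with all UMIs (top row) and with each cell thinned to 1000 UMIs (bottom row). NK-gated cells peak at 7 genes with all UMIs, whereas 64.0% of CD4-gated cells have none; after thinning the median of NK-gated cells is 3 genes.

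The median NK-gated cell had UMIs of 7 of the 10 receptors, 306 of 338 cells had at least 5, 7 cells had all 10 and 2 cells had none. The median was 2 receptors in CD8-gated and gamma-delta-gated cells and 0 in CD4-gated cells. After thinning to 1000 UMIs per cell the median was 3 in NK-gated cells and 0 in the other 3 classes, and 3.27% of NK-gated, 61.8% of CD8-gated, 50.9% of gamma-delta-gated and 88.5% of CD4-gated cells had none.

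*Klrg1*, an inhibitory receptor for cadherins, was the exception among receptors in CD4-gated cells. It stood at 151, 30.3 and 73.0 CPM in the NK-gated cells of libraries 1, 3 and 4, values whose intervals do not overlap. CD4-gated cells held 56.2 CPM, the highest of the 10 receptors in that class, where *Klrd1* had 29.1 CPM, and CD8-gated cells held 1.75 CPM. The CD4-gated cells were then split by a UMI of *Foxp3*, the transcription factor of regulatory T cells, a split chosen after the levels had been seen. The 50 cells with *Foxp3* held 282 CPM of *Klrg1* (241 to 328) and the 247 without held 9.29 CPM (6.12 to 13.5), at median depths of 7915 and 7721 UMIs. A *Klrg1* UMI was in 28 of the 50 cells and in 7 of the 247, or after thinning in 26.0% and 0.408% of cells. Without library 4 the level over all CD4-gated cells was 147 CPM, none of it from library 2. The 37 CD4-gated cells of library 2 had 0 *Klrg1* UMIs, where 3 UMIs would be 17.7 CPM. In library 4 the values were 242 CPM (201 to 288) in 38 cells and 3.89 CPM (1.87 to 7.16) in 188 cells.

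*Klra8* lay the same way at a low level, with 9 UMIs from 2 cells with *Foxp3*, 14.9 CPM (6.83 to 28.4), and 2 UMIs in the cells without. Over all CD4-gated cells *Klrc1* and *Klrk1* stood at 14.8 and 22.8 CPM, and without library 4 at 0 and 2.37 CPM. *Klrd1*, *Klrc1* and *Klrk1* stood at 9.96, 4.98 and 9.96 CPM in the cells with *Foxp3* and at 33.0, 16.9 and 25.5 CPM in those without, and *Klrb1a*, *Klrb1c*, *Klra4* and *Ncr1* had 0 UMIs in the 50 cells, where 3 UMIs would be 4.98 CPM. Of the 197 *Klrg1* UMIs of the CD4-gated class, 170 thus came from the 50 cells with *Foxp3*.

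The gamma-delta-gated cells held 433 CPM of *Klrd1*, 252 CPM of *Klrc1*, 332 CPM of *Klrk1*, 189 CPM of *Klre1* and 101 CPM of *Klrb1c*, levels between those of NK-gated and CD4-gated cells for 4 of these 5, while *Klrc1* lay above its level in NK-gated cells. Without library 4 *Klrd1* stood at 280 CPM in these cells, and *Klrc1* stood at 224 CPM, below the 267 CPM of NK-gated cells. These levels did not belong to all of the cells alike. When the T/NK-like cells were clustered again without the receptor genes, subcluster 9 held 2349 CPM of *Trdc* and 94.9 CPM of *Trac*, where the other subclusters held at most 122 CPM of *Trdc*, and its leading genes were *Cd163l1*, *Trdc* and *Tmem176a*. It held 27 of the 57 gamma-delta-gated cells. These 27 had 170 CPM of *Klrk1* (106 to 257), 2 UMIs of *Klrc1* and 0 UMIs of the other 8 receptors, where 3 UMIs would be 23.2 CPM. The other 30 had 653 CPM of *Klrd1* (558 to 760), 414 CPM of *Klrk1*, 371 CPM of *Klrc1* and 285 CPM of *Klre1*, and their 10 receptors summed to 2162 CPM. Over all 55 cells of subcluster 9, gated or not, *Klrk1* stood at 159 CPM and *Klrg1* at 61.0 CPM.

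This split and 2 further gates were chosen after the levels had been seen. Requiring a UMI of a *Tcrg-C* gene, the constant part of the gamma chain, kept 46 cells with a sum of 953 CPM, in which *Klrd1* stood at 310 CPM and *Klra4* and *Klra8* had 0 UMIs. Leaving out cells with UMIs of at least 2 NK markers left a sum of 127 CPM, with 115 CPM of *Klrk1* and 12.7 CPM of *Klrd1*. The same markers define the NK-gated class, so this gate selects against NK-like cells and cannot test whether gamma-delta T cells hold less of the receptors. *Klrk1* was the receptor present under each of these definitions. The 7 receptors counted above as higher in NK-gated cells depend on the definition in the same way, as *Klrd1* and *Klrk1* also passed 2-fold under both of these gates and, without library 4, with log2 differences of 1.32 and 1.28.

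**Figure D3:**
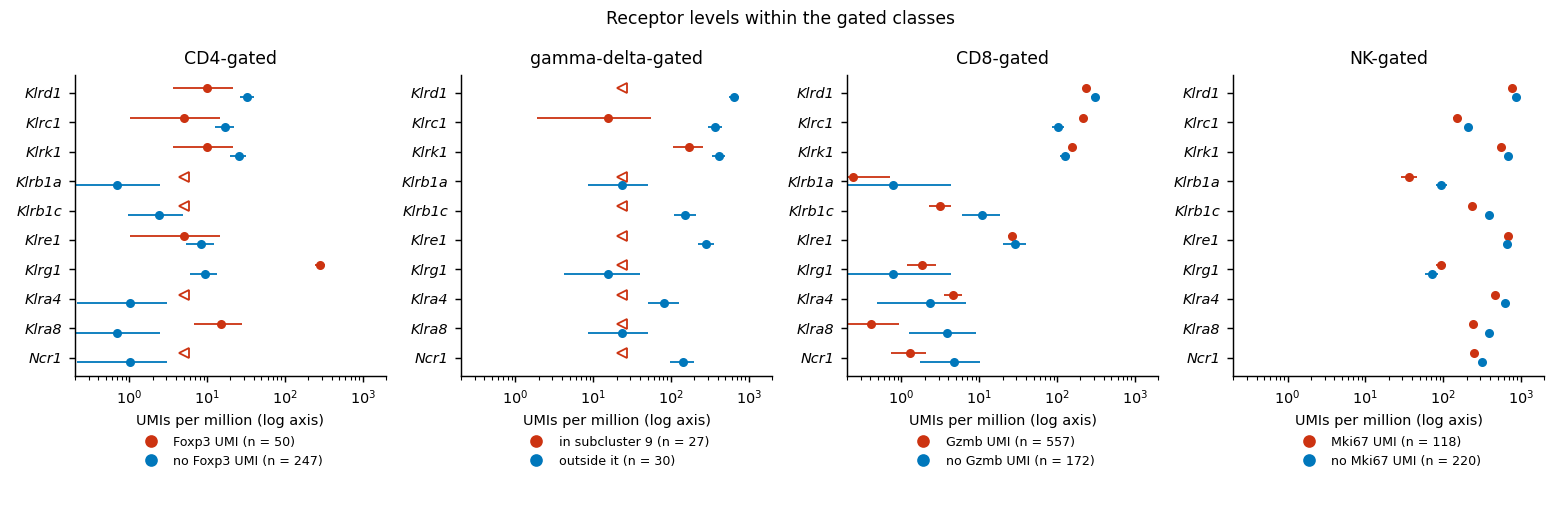
Level of each receptor gene (CPM, log axis) in CD4-gated cells by a *Foxp3* UMI, gamma-delta-gated cells by membership of subcluster 9, CD8-gated cells by a *Gzmb* UMI and NK-gated cells by an *Mki67* UMI. Points are all libraries together with exact Poisson 95% intervals (counting error only) and open triangles a count of 0 drawn at the level of 3 UMIs; *Klrg1* is at 282 CPM with *Foxp3* and at 9.29 CPM without, and *Klrk1* and *Klrc1* are the genes with a UMI in the 27 gamma-delta-gated cells of subcluster 9.

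Among NK-gated cells, 118 had a UMI of the proliferation gene *Mki67* and 220 had none, at median depths of 15366.5 and 7288 UMIs. In library 4, with 102 and 132 cells, the 10 receptors summed to 3470 CPM in cells with *Mki67* and to 4290 CPM in cells without. *Klrb1a* stood at 31.4 CPM (23.7 to 40.9) with and 82.4 CPM (65.9 to 102) without *Mki67*, *Klra8* at 251 and 393 CPM, *Klra4* at 516 and 717 CPM and *Klrb1c* at 230 and 352 CPM, all with intervals that do not overlap. The share of all genes with such intervals in this split was not counted, so this does not set the receptors apart from other genes. *Klre1* stood at 686 CPM (648 to 726) and 649 CPM (601 to 700), intervals that overlap, and *Klrg1* at 84.0 CPM (70.9 to 98.7) and 54.6 CPM (41.4 to 70.7), the higher value being in cells with *Mki67*. The lower levels with *Mki67* were thus not common to the 10 receptors. At the equal depth of 1000 UMIs a *Klra4* UMI was in 40.2% and 39.2% and a *Klra8* UMI in 23.5% and 26.2% of cells with and without *Mki67*. A *Klrb1c* UMI was in 20.6% and 32.3%. With 102 and 132 cells these shares are coarse, and whether the differences in CPM hold at equal depth was not tested.

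Outside the T/NK-like cluster, 8 of the 10 receptors were rare. Of the UMIs of *Klra4*, *Klra8*, *Klrb1c*, *Klrc1*, *Klre1*, *Klrg1* and *Ncr1*, between 90.5% and 94.4% lay in T/NK-like cells, and for *Klrb1a* 68.2% did, with 24.2% in fibroblast-like cells at 1.28 CPM. *Klrd1* and *Klrk1* differed. Of 17032 *Klrk1* UMIs 31.2% lay in T/NK-like cells and 62.5% in the 8577 macrophage-like cells. Of 10062 *Klrd1* UMIs 76.5% lay in T/NK-like, 10.6% in dendritic-like and 9.88% in macrophage-like cells.

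Macrophage-like cells held 11.6, 1.55, 1.71 and 117 CPM of *Klrk1* in libraries 1 to 4, so library 4 stood far above the others. There it was carried by clusters 2 and 7, which hold 3791 and 2075 cells of library 4 and lead with *Ms4a4c*, *Ly6i* and *Ly6c2* and with *Ccl8* and complement genes. *Klrk1* stood at 129 CPM in cluster 2 and at 103 CPM in the library 4 cells of cluster 7, and 68.1% and 70.7% of their cells had a UMI at median depths of 13480 and 19103 UMIs. Macrophage-like cluster 12, which leads with *Fcrls*, *Ms4a7* and *Apoe* and holds 16 cells of library 4, had 1.84 CPM and a UMI in 2.00% of cells at a median depth of 12533. Cluster 14, which leads with *Arg1* and *Ccl24*, had 5.51 CPM, and 37.4 CPM in its 106 cells of library 1. Since clusters 2 and 7 lie almost wholly in 1 library, the library and the kind of macrophage cannot be told apart.

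Within library 4, the macrophage-like cells held less of *Klrd1*, *Klra4* and the T cell gene *Cd3d* than of *Klrk1*. In library 4 *Cd3d* stood at 8.76 CPM in macrophage-like, 7.88 CPM in fibroblast-like and 8.84 CPM in endothelial-like cells, close together, whereas *Klrk1* stood at 117, 12.04 and 7.29 CPM. In T/NK-like cells of the same library *Cd3d* was at 808 CPM and *Klrk1* at 198 CPM, so *Klrk1* was below *Cd3d* there and above it in macrophage-like cells. *Klrd1* was at 8.86 CPM and *Klra4* at 0.71 CPM in the macrophage-like cells of library 4. *Hcst*, which encodes an adaptor of the *Klrk1* product, was at 33.7 CPM in these cells and at 52.9, 42.05 and 40.9 CPM in those of libraries 1, 2 and 3. The level of *Tyrobp*, the other adaptor gene named above, in macrophage-like cells is not given here, so *Hcst* alone does not describe their adaptor RNA. After thinning, a *Klrk1* UMI was in 8.03% of macrophage-like cells and in 0.0502% of endothelial-like cells.

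Dendritic-like cells (cluster 13, 3 of 6 markers raised, leading with *Ccr7*, *Il4i1* and *Cd209a*) held *Klrd1* as well as *Klrk1*. *Klrd1* stood at 284, 206, 383 and 93.0 CPM in libraries 1 to 4 and *Klrk1* at 100, 94.2, 80.8 and 135 CPM. The 72, 26 and 69 cells of libraries 1, 2 and 3 had median depths of 16866, 10840.5 and 13596 UMIs and no UMI of *Cd3d* or *Gzma*. The 1095 cells of library 4 had a median of 1082 UMIs, with 46.3 CPM of *Cd3d* and 153 CPM of *Gzma*, and whether the dendritic cell markers hold in these cells alone was not tested. *Klrd1* was seen in 58.3%, 65.4% and 63.8% of the dendritic-like cells of libraries 1, 2 and 3, and its inhibitory partner *Klrc1* was at 0.81, 3.62 and 0 CPM in them.

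**Figure D4:**
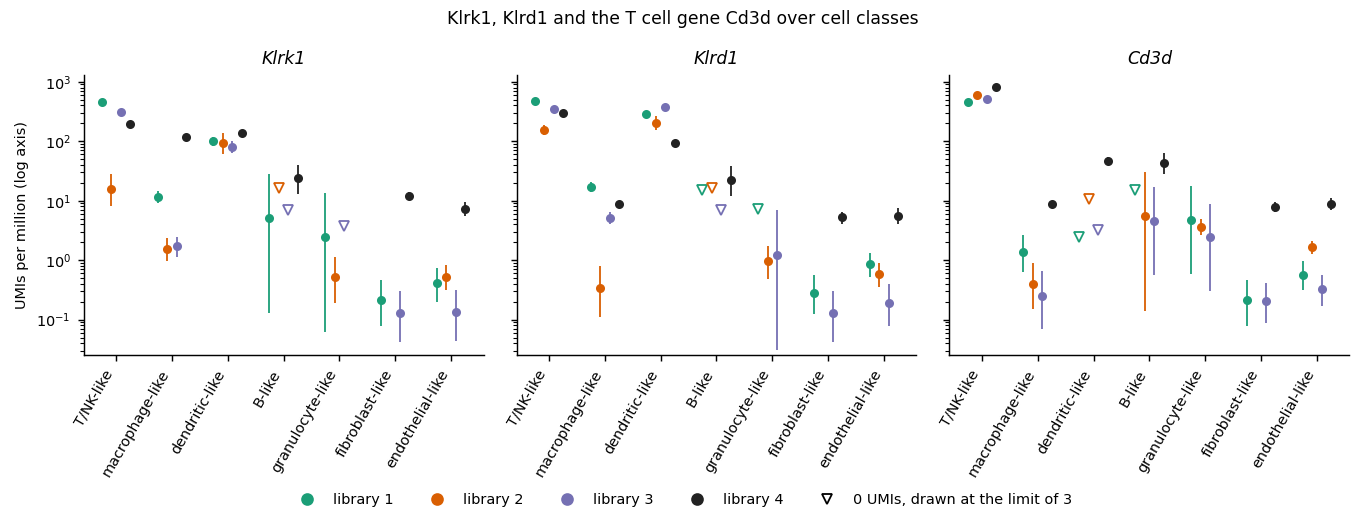
Levels of *Klrk1*, *Klrd1* and the T cell gene *Cd3d* (CPM, log axis) in 7 cell classes. Points are libraries with at least 20 cells of the class, with exact Poisson 95% intervals (counting error only), and open triangles a count of 0 drawn at the level of 3 UMIs; *Klrk1* in macrophage-like cells is at 117 CPM in library 4 and at most 11.6 CPM in the others, while *Cd3d* in library 4 is between 7.88 and 8.84 CPM in macrophage-like, fibroblast-like and endothelial-like cells.

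Other genes of the pathway were taken from lists by function. Of 26 other killer receptor genes 24 were in the matrix and 17 had at least 10 CPM in NK-gated or CD8-gated cells. Of these 17, 11 were higher in NK-gated cells by 2-fold and 2 were lower, against 3.84% and 2.93% of all genes. The median log2 difference was 0.55 over the 24 genes in the matrix, which include those below 10 CPM in both classes. The 4 of highest level in NK-gated cells were *Klra7* (349 against 14.6 CPM in CD8-gated cells), *Klra9* (204 against 2.996 CPM), *Klri2* (170 against 6.80 CPM) and *Klrb1b* (166 against 3.29 CPM), which belong to the Ly49, Klri and NKR-P1 groups. Whether these genes share reads with near copies was not tested. The lowest were *Crtam* (36.8 against 139 CPM) and *Slamf6* (14.97 against 53.0 CPM), receptors that T cells also use.

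Of 14 adaptor and signalling genes 8 were higher in NK-gated than in CD8-gated cells and 1 was lower, against 3.84% and 2.93% of all genes. The median log2 difference was 1.13. *Fcer1g* (2088 against 157 CPM) and *Tyrobp* (2034 against 95.2 CPM), which carry the signals of *Ncr1* and of activating Ly49 receptors, were the highest, followed by *Hcst* (308 against 146 CPM) and *Sh2d1a* (188 against 71.2 CPM). *Lat*, a scaffold of T cell receptor signalling, was the gene that was lower (34.9 against 429 CPM), and *Zap70*, a kinase of the same route, had 95.9 against 179 CPM and did not pass 2-fold. The median log2 difference of the list was 0.47 against CD4-gated and 0.05 against gamma-delta-gated cells.

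Of 12 transcription factors 11 were compared and *Id2*, needed for NK cell development, was the 1 that passed 2-fold (1160 against 446 CPM), where 3.84% of all genes were higher. The next in level were *Runx3* (399 against 229 CPM), *Ets1* (378 against 317 CPM) and *Klf2* (225 against 118 CPM), which did not pass. *Tox* (35.2 against 50.5 CPM) and *Zeb2* (65.4 against 83.3 CPM) had the lowest folds of the list. The transcription factor gene *Eomes*, which served in the NK gate, was not in this list and stood at 203 against 25.4 CPM. Of 12 effector genes 2 were higher, *Ccl5* (4620 against 1415 CPM) and the death ligand gene *Fasl* (131 against 47.9 CPM), and 2 were lower, *Ifng* (141 against 1732 CPM) and *Ccl3* (232 against 1239 CPM). Of all genes 3.84% were higher and 2.93% lower. *Gzmb* (3001 against 5949 CPM) and *Nkg7* (2548 against 2064 CPM), both of cytotoxic granules, were among the 4 highest with *Ccl5* and did not pass 2-fold. The granule gene *Gzma*, which served in the NK gate, was not in this list and stood at 11504 against 1053 CPM. The gate markers did not all lie this way. *Xcl1* was lower in NK-gated cells (1078 against 2606 CPM), and *Prf1* had 1246 against 737 CPM. *Txk* had 370 against 79.0 CPM and *Il2rb* 1136 against 389 CPM.

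Of 17 ligand genes 15 were in the matrix. None of the 6 compared differed by 2-fold between NK-gated and CD8-gated cells. *H2-T23*, whose product is read by the *Klrd1* and *Klrc1* pair, varied with the library in graft cells. In endothelial-like cells it stood at 404, 82.3, 289 and 984 CPM in libraries 1 to 4, and in macrophage-like cells at 304, 52.0, 211 and 851 CPM, in both cases lowest in library 2 and highest in library 4. In library 4 the endothelial-like cells were all of cluster 22 and the macrophage-like cells nearly all of clusters 2 and 7. The library and the kind of cell can therefore not be told apart in these values. The RNAs of 3 ligands of *Klrk1* were low in each class. *Raet1d* and *Raet1e* were at most 2.16 and 2.41 CPM in any class with all libraries together, and *Ulbp1* at most 9.30 CPM, in T/NK-like cells. Among cadherins, *Cdh2* was at 71.4 CPM in cardiomyocyte-like and 50.2 CPM in fibroblast-like cells, and *Cdh1* was at 12.9 CPM in dendritic-like cells and under 2 CPM in all other classes.

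Likeness was measured as Pearson's r of log2(CPM + 10) over 43 groups of cells, each a class in a library, which share libraries and depth, and over 8006 genes with at least 50 CPM in 1 group. For *Klra4*, *Klra8*, *Klrb1a*, *Klrb1c* and *Ncr1* the nearest 2 genes outside the 10 were *Khdc1a* and *Styk1*, with r from 0.969 to 0.991. *Klre1* was most like *Klra7* (0.984), *Eomes* (0.980), which is a gate marker, and *Samd3* (0.971). *Klrc1* was most like *Cd160* (0.987), *Klrc2* (0.976) and *Tbx21* (0.965). Part of the end sequence of *Klrc1* transcripts also occurs in *Klrc2*, and whether reads were shared was not tested. *Klrd1* was nearest to *Cd7* (0.956), *Klrk1* to *Cst7* (0.918) and *Klrg1* to *Styk1* (0.889). The sum of the 10 was nearest to *Cst7* (0.933), *Cd7* (0.931) and *Ccl5* (0.910). The correlations were not tested.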

How the data were processed

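Single-cell RNA sequencing of 4 day 5 heart grafts was deposited as 1 table of UMI counts per gene and cell. The authors made these counts with Cell Ranger 3.0.0 on the mouse build mm10 (GRCm38), without normalisation, and merged the libraries before depositing them. No label ties a barcode suffix to a graft, so all cells count as 1 pooled sample: there are no replicates, no test was run, and intervals are exact Poisson or Clopper-Pearson 95% intervals for counting error only. The members and gene lists were chosen with earlier results of these data known.

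Cells with at least 200 genes and at most 20% mitochondrial UMIs were kept, and the 5% with the highest score against simulated doublets were removed. Cells were clustered by the Leiden method (2000 variable genes, 10 principal components, 30 neighbours, resolution 0.8, and 0.5 for the T/NK-like cells) with all *Klr* genes and *Ncr1* left out. A class was named from at least 3 markers raised by 2-fold. Levels are summed UMIs per 1000000 non-mitochondrial UMIs (CPM). Genes with at least 10 CPM in either class were compared, with 10 CPM added, and called at 2-fold. By rule, the text named the 10 members, up to 4 genes of each list highest in NK-gated cells and up to 2 of lowest fold, and from the 3 genes most like each member. *Fasl*, the ligand genes other than *H2-T23* and all values of ligands in graft cells were chosen after their values were seen. The 2-fold call rule was checked on simulated counts with known changes, which is not a test of the grafts' cells. Alternatives are given in the closing section. Python 3.11.15, numpy 2.4.6, scipy 1.17.1, scikit-learn 1.9.0, igraph 0.11.9 and leidenalg 0.10.2 were used.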

Additional observations from a re-analysis of the deposited data

How the results depend on the processing

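No paired analysis was possible because the barcode suffixes carry no graft or replicate number. The sum of the 10 receptors was highest in NK-gated cells under each alternative below, whereas the place of gamma-delta-gated cells turned on how they were defined. It lay at 4201, 513 and 227 CPM in NK, CD8 and gamma-delta subclusters named from markers (no subcluster was named CD4). Without any CD3 UMI, NK-gated cells held 4010 CPM. With doublets kept, NK-gated, CD8-gated and gamma-delta-gated cells held 3607, 611 and 1290 CPM. As a mean over cells, NK-gated, CD4-gated and gamma-delta-gated cells held 4204, 186 and 1249 CPM. Thinned to 1000 UMIs per cell, NK-gated, CD8-gated, CD4-gated and gamma-delta-gated cells held 4307, 618, 176 and 1333 CPM. Gamma-delta-gated cells held 953 CPM with a *Tcrg-C* UMI required and 127 CPM without cells of at least 2 NK markers, both chosen after seeing the data. The 7 receptors higher in NK-gated than in gamma-delta-gated cells numbered 3 at 4-fold, and between 7 and 10 under the other alternatives. The share of all genes under these other alternatives is not given here. The count of 10 came from the gate without cells of at least 2 NK markers, which are the markers of the NK gate, and is no test. Leaving out 1 library at a time, the sum ranged from 3790 to 4006 CPM in NK-gated, 420 to 644 CPM in CD8-gated, 129 to 178 CPM in CD4-gated and 1281 to 1629 CPM in gamma-delta-gated cells. No called difference changed its direction under the alternatives run. Of the levels of single receptors, 141 moved beyond their counting interval and 239 did not, and the cause was not tested. With few gamma-delta-gated cells, and with CD4-gated cells at 0 UMIs of several receptors, lower levels were not detectable at this depth.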

Other observations

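*Klrb1a* had 24.2% of its UMIs in fibroblast-like cells, where the other 9 receptors had at most 2.21% of theirs. *H2-T23* in fibroblast-like cells stood at 248, 152 and 736 CPM in libraries 1, 3 and 4. In library 4 nearly all of these cells were of cluster 23 (566 cells), so the library and the kind of fibroblast cannot be told apart. *Clec2d*, whose product is a ligand of an NKR-P1 receptor, stood at 294 CPM in endothelial-like cells against 100 CPM in NK-gated cells. These genes were chosen after their values were seen.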
